A study of Mus musculus with 12 samples.

Results

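Purkinje cells (PCs), the fast-conducting myocytes of the ventricular conduction system, were compared with working ventricular myocytes (VMs) of wild-type (WT) mice. The 6 libraries used, 3 of WT PCs and 3 of WT VMs, were taken by sample title from the 12 libraries of the series, and the other 6 are PCs and VMs of mice lacking the neural cell adhesion molecule gene *Ncam1* (*Ncam-1* KO). All mice, WT and KO, carried the *Cntn2*-EGFP reporter, a bacterial artificial chromosome transgene in which regulatory DNA of *Cntn2* drives green fluorescent protein. Ventricles were dissociated by Langendorff perfusion with enzymes, and the cells were incubated with 50 nM TMRM, a red dye held in energized mitochondria, for 15 minutes. PCs were sorted as cells positive for both colours and VMs as cells positive for TMRM and negative for EGFP. The methods put the transgene in a CD1 background and the *Ncam-1* line in C57BL/6, and give no ages for the sorted animals beyond calling the hearts adult. The titles number the libraries 1 to 3 in each group, and no label says whether a library pools animals, so p-values measure the spread between these libraries.

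The His-Purkinje system carries the impulse from the atrioventricular node to the ventricular wall. Its cells couple through the gap junction protein connexin 40, encoded by *Gja5*, and depolarize quickly through sodium channels. They belong to the same lineage as the working myocytes of the trabeculae and keep a full set of sarcomere and metabolic genes, while a set of ion channel, transcription factor and cell surface genes better known from neurons sets them apart. PCs lie just beneath the endocardium within a sheath of matrix and are a small minority of ventricular myocytes.

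Read pairs counted on genes outside the mitochondrial genome numbered 1532393 to 6761356 in WT PC libraries and 3124490 to 3986000 in WT VM libraries. Mitochondrial genes held 84.1% to 91.3% of the counts in the 6 libraries. WT PC replicate 2 stood apart: 63.9% of its pairs found no place on the genome, where the other 5 libraries had 20.8% to 21.7%, it had the smallest count outside the mitochondria, and counts fell on 11847 genes, against 15489 to 18129. Its median Spearman correlation with the other libraries was 0.739 over 8897 genes, against 0.926 to 0.949 for the others. Results that depend on this library are therefore given with all 6 libraries and again without it. Fewer cells of a type and less RNA per cell cannot be told apart in such pooled RNA, and because pairs carried no molecular identifiers, intervals on counts cover counting error only.

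The markers of PCs were higher in every WT PC library than in every WT VM library. *Cntn2*, a contactin whose regulatory DNA drives the sort reporter, had normalized counts of 313, 582 and 715 in PCs and 3.75, 5.08 and 3.02 in VMs. Its level is therefore tied to the gate and is a check of the sort rather than a finding. Counts were 68.7, 57.9 and 114 in PCs and 6.25, 2.54 and 11.1 in VMs for *Gja5*, with a log2 fold change of 3.55 ± 0.61 (SE) and an adjusted p of 0.149 in the quasi-likelihood test of edgeR (Benjamini-Hochberg), which became 0.00186 without WT PC replicate 2. For the adhesion molecule genes the study turns on, *Ncam1* stood at 47.9, 85.6 and 89.9 in PCs and 7.5, 0 and 9.06 in VMs and *Alcam*, the activated leukocyte cell adhesion molecule, at 37.5, 32.7 and 101 in PCs and 3.75, 2.54 and 5.03 in VMs. The PC and VM libraries did not overlap for either gene. Log2 fold changes were 3.69 ± 0.82 (SE) for *Ncam1* (adjusted p = 0.292, and 0.0163 without WT PC replicate 2) and 3.87 ± 0.70 (SE) for *Alcam* (adjusted p = 0.159, and 0.00245 without that library). Cardiomyocyte genes were abundant in all 6 libraries, as described further on.

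With all 6 libraries, 13 of 12035 genes passed an adjusted p of 0.05 as higher in PCs, which is 0.108% of the genes tested, and 0 passed as lower (0%). Those 13 were *Cntn2*, *Scn10a*, *Sema3a*, *Slit2*, *Ephb1*, *Drd2*, *Sbk3*, *Stard10*, *Spock2*, *Etv1*, *Slit3*, *Vcan* and *Map1a*. At an unadjusted p under 0.05, 612 genes were higher (5.09%) and 147 lower (1.22%). The 3 PC libraries lay entirely above the 3 VM libraries for 809 genes (6.72%) and entirely below for 865 (7.19%). Without WT PC replicate 2, edgeR's quasi-likelihood test called 107 of 12262 genes higher (0.873%) and 1 lower (0.00816%), and at an unadjusted p under 0.05 these numbers were 865 (7.05%) and 408 (3.33%). All 13 genes were among the 107, with log2 fold changes of 3.14 to 7.005 and adjusted p-values of 3.98e-06 to 0.0015 there. Other tools called more genes, with 123 higher and 1 lower in DESeq2's Wald test and 127 higher and 4 lower in limma voom with quality weights, and both included the 13. The calls depended on single libraries: leaving out WT PC replicate 3 left 3 (*Cntn2*, *Sema3a* and *Slit2*), and leaving out any 1 VM library left 1 (*Cntn2*).

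**Figure D1:**
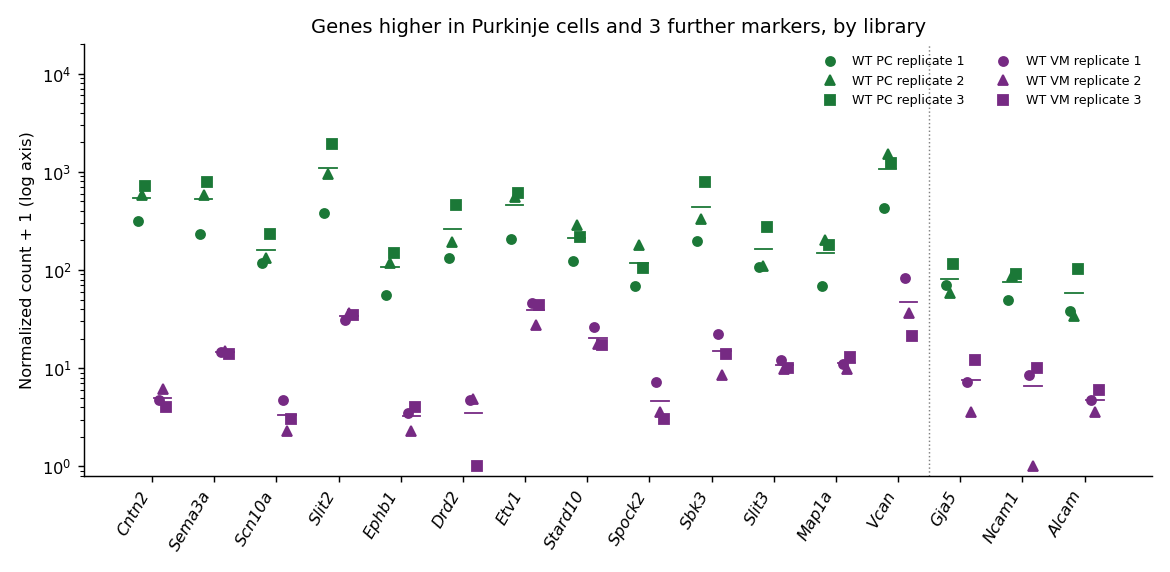
Normalized counts plus 1, on a log axis, of the 13 genes called higher in PCs and, right of the dotted line, of *Gja5*, *Ncam1* and *Alcam*, with 1 point per library (green WT PC, purple WT VM, symbol by replicate) and a line at each group mean. The 3 PC points lie above the 3 VM points for all 16 genes.

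Among ion channels, *Scn10a*, which encodes the sodium channel Nav1.8 known from sensory neurons, rose in PCs (ENSMUSG00000034533, chr9:119608456-119719322). Its normalized counts were 117, 131 and 233 in PCs and 3.75, 1.27 and 2.01 in VMs. Since the VM libraries held only 1 to 3 counts, the summed ratio was 69.8 (95% counting interval 31.9 to 191), with an adjusted p of 0.0081 in edgeR's quasi-likelihood test. Of 19 listed genes for sodium channels and their partners, 11 were tested, and 1 passed the adjustment, beside 0.108% of all genes. *Fgf12*, a fibroblast growth factor homologue that binds sodium channels, stood at 31.2, 98.2 and 96.1 in PCs and 10.0, 1.27 and 3.02 in VMs (adjusted p = 0.216, and 0.0163 without WT PC replicate 2). *Scn4b*, a channel beta subunit, pointed the other way at 138, 83.1 and 136 in PCs and 230.0, 169 and 309 in VMs, with an unadjusted p of 0.0164 and an adjusted p of 0.676.

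The T-type calcium channel genes, which open at negative potentials and serve pacemaking cells, separated the groups more clearly once WT PC replicate 2 was left out. *Cacna1g* stood at 68.1, 73 and 149 in PCs and 16.3, 20.3 and 21.1 in VMs, and its log2 fold change was 2.33 ± 0.47 (SE) with all 6 libraries (adjusted p = 0.216) and 2.48 without that library (adjusted p = 0.00658). *Cacna1h* stood at 53.7, 20.1 and 200.02 in PCs and 8.75, 16.5 and 18.1 in VMs, with adjusted p-values of 0.603 and 0.00917. The auxiliary subunit gene *Cacnb4* reached 0.0469 without the library, and *Cacna1c*, the L-type channel of the working myocyte, stood at 1379.6, 944 and 1390.1 in PCs and 1739, 1924 and 1717 in VMs (adjusted p = 0.769). Of 12 calcium channel genes tested, 5 had an unadjusted p under 0.05 as higher and 1 as lower, beside 5.09% and 1.22% of all genes. The pacemaker channel gene *Hcn4* stood at 39.8, 113 and 44.2 in PCs and 16.3, 10.2 and 16.1 in VMs and did not pass the adjustment (log2 fold change 2.17 ± 0.58 (SE), adjusted p = 0.522).

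Genes of sarcoplasmic reticulum calcium handling gave a sum of 141104 to 168064 in PCs, below the 172872 to 183932 in VMs, but 0 of 24 passed the adjustment. At an unadjusted p under 0.05, 0 were lower and 2 higher, beside 1.22% and 5.09% of all genes, the 2 being the inositol trisphosphate receptor genes *Itpr1* and *Itpr2*. The median log2 fold change was 0.02, and -0.11 without WT PC replicate 2.

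No listed potassium channel gene passed the adjustment with all 6 libraries. Of 11 inward rectifier and two-pore members tested out of 15, 2 had an unadjusted p under 0.05 as higher, beside 5.09% of all genes. The PC libraries lay entirely above the VM libraries for 3 of them and entirely below for 2, beside 6.72% and 7.19% of all genes. Of 13 voltage-gated members tested out of 32, 0 passed the adjustment and 2 had an unadjusted p under 0.05 as higher, beside 5.09% of all genes. *Kcne1*, the beta subunit of the slow delayed rectifier, had the higher counts of these, at 114, 111 and 154 in PCs and 50.0, 33 and 73.5 in VMs (log2 fold change 1.27 ± 0.40 (SE), adjusted p = 0.609). *Kcnj8*, the pore of the ATP-sensitive channel of vessel wall cells, stood at 58.3, 136 and 43.4 in PCs and 12.5, 12.7 and 15.1 in VMs and passed without WT PC replicate 2 (adjusted p = 0.0492). It is on the smooth muscle and pericyte list as well as the potassium channel list. The channels of the working myocyte, such as *Kcnj2* at 637, 889 and 485 in PCs and 618, 948 and 871 in VMs and *Kcnip2* at 305, 339.9 and 222 in PCs and 288, 349.5 and 285 in VMs, overlapped between the groups. Without WT PC replicate 2 *Kcnj2* had an unadjusted p under 0.05 as lower, as 3.33% of all genes did, with libraries that still overlapped.

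Axon guidance genes made up 4 of the 13. These encode secreted cues and receptors that steer growing axons and vessels. *Sema3a*, a secreted semaphorin known to repel sympathetic axons in the heart, had counts of 230.3, 584 and 779 in PCs and 13.8, 14 and 13.1 in VMs (ENSMUSG00000028883, chr5:13125414-13602565). The 3 VM libraries were within 1 normalized count of each other, and the log2 fold change was 5.27 ± 0.50 (SE), with an adjusted p of 0.0081 in edgeR's quasi-likelihood test. The secreted ligands of the Robo receptors rose as well, *Slit2* (ENSMUSG00000031558, chr5:47983138-48307733) with 376, 952 and 1929.7 in PCs and 30.0, 35.6 and 34.2 in VMs and *Slit3* (ENSMUSG00000056427, chr11:35121224-35708507) with 105, 108 and 274 in PCs and 11.3, 8.9 and 9.06 in VMs. Log2 fold changes were 5.02 ± 0.58 (SE) (adjusted p = 0.0285) and 4.05 ± 0.53 (SE) (adjusted p = 0.0304). WT PC replicate 3 was the highest library for both. *Ephb1*, an ephrin receptor (ENSMUSG00000032537, chr9:101922128-102354693), had 54.3, 116 and 147 in PCs and 2.5, 1.27 and 3.02 in VMs, a summed ratio of 41.5 (95% counting interval 18.9 to 114) and an adjusted p of 0.0285.

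*Robo1*, a receptor for Slit proteins, had no count in any VM library and 19.6, 161 and 39.5 normalized counts in PCs. Against a floor of 3 counts per VM library it was at least 20.8-fold higher, and at least 8.39-fold without WT PC replicate 2, its highest library, with an adjusted p of 0.216 and 0.00917 respectively. *Sema3c*, a semaphorin of the outflow tract, stood at 226, 546 and 412 in PCs and 100.02, 105 and 99.6 in VMs (adjusted p = 0.149, and 0.00668 without WT PC replicate 2). The member with the highest mean count on each guidance list did not separate the groups. The netrin receptor homologue *Neo1* stood at 1171, 519 and 1196 in PCs and 1035, 1018 and 1196 in VMs. For the semaphorin receptor *Nrp1* counts were 569, 778 and 754 in PCs and 553, 852 and 687 in VMs. The Eph receptor *Epha4* had 621, 567 and 274 in PCs and 586, 581 and 401 in VMs. Of the genes tested, 2 of 10 Slit, Robo and netrin genes, 1 of 20 semaphorin genes and 1 of 11 Eph and ephrin genes passed, beside 0.108% of all genes. Median log2 fold changes of the lists were 0.68, 0.09 and 0.58, against -0.0032 over all genes tested.

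Receptors, kinases and adhesion molecules accounted for further calls. *Drd2*, the dopamine D2 receptor (ENSMUSG00000032259, chr9:49340627-49408177), had 132, 194 and 462 in PCs and 3.75, 3.81 and 0 in VMs, a summed ratio of 113 (95% counting interval 51.9 to 309.6) and an adjusted p of 0.0298 in edgeR's quasi-likelihood test. Its neighbour *Ankk1* (ENSMUSG00000032257, chr9:49415194-49427021), a kinase gene chosen here after its values were seen, had no count in VMs and 8.08, 0 and 55.8 in PCs. *Ncam1* (ENSMUSG00000039542, chr9:49502136-49798925) lies close by on the same chromosome. *Sbk3*, a kinase of the SH3-binding domain family (ENSMUSG00000085272, chr7:4965260-4971168), rose from 21.3, 7.63 and 13.1 in VMs to 196, 332 and 794 in PCs, with a log2 fold change of 4.97 ± 0.62 (SE) and an adjusted p of 0.03. Its paralogue *Sbk2* stood at 34.6, 22.7 and 70.6 in PCs and 10.0, 12.7 and 6.04 in VMs and passed only without WT PC replicate 2 (adjusted p = 0.0338). *Chrm2*, the muscarinic receptor that slows the heart, had far higher counts, not corrected for length, and did not separate the groups. It stood at 1645, 1737 and 1948 in PCs and 1363, 1551 and 2057 in VMs.

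Of 36 adhesion genes of the immunoglobulin superfamily, 20 were tested and 1 passed, beside 0.108% of all genes. This was *Cntn2*, whose level is tied to the sort gate. Without WT PC replicate 2 there were 4, with *Ncam1*, *Alcam* and *Ntm* added, beside 0.873% of all genes. *Ntm*, neurotrimin, a GPI-anchored neural adhesion protein, stood at 28.3, 55.4 and 50.4 in PCs and 2.5, 0 and 3.02 in VMs and had a summed ratio of 20.5 (95% counting interval 8.58 to 64.2). The contactin *Cntn3*, chosen after its values were seen, stood at 47.3, 50.4 and 21.7 in PCs and 0, 0 and 6.04 in VMs (adjusted p = 0.504). Beside *Cntn2*, the members with the highest mean counts, *Jam2* at 1725, 876 and 1427 in PCs and 1549, 1301 and 1413 in VMs and *Pecam1* at 239, 181 and 174 in PCs and 150.0, 76.3 and 70.4 in VMs, are known from endothelium, and *Jam2* did not separate the groups. The list median was 1.19.

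In the cytoskeleton and in lipid handling, *Map1a* and *Stard10* rose. *Map1a*, a microtubule-associated protein of mature neurons (ENSMUSG00000027254, chr2:121289600-121310832), had 67.5, 199 and 179 in PCs and 10.0, 8.9 and 12.1 in VMs, and its log2 fold change was 3.81 ± 0.53 (SE) (adjusted p = 0.0424). *Stard10*, a phospholipid transfer protein (ENSMUSG00000030688, chr7:101317086-101346626), had 124, 287 and 216 in PCs and 25, 16.5 and 16.1 in VMs, with 3.43 ± 0.44 (SE) (adjusted p = 0.03). *Map1b* stood at 253, 70.5 and 408 in PCs and 106, 58.5 and 74.5 in VMs, where WT PC replicate 2 lay within the range of the VM libraries, and passed without it (adjusted p = 0.00238). *Neb*, the thin filament ruler nebulin of skeletal muscle, stood at 423, 1110.3 and 947 in PCs and 210.0, 174 and 243 in VMs (adjusted p = 0.164, and 0.0094 without that library). *Pcp4*, a calmodulin regulator named for cerebellar Purkinje neurons, had no count in VMs and 17.3, 219 and 55 in PCs, so it was at least 27.5-fold higher against the floor of 3 counts (adjusted p = 0.216). Without WT PC replicate 2, its highest library, the bound was 10.3-fold (adjusted p = 0.00893).

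Of the transcription factors, *Etv1*, an ETS factor required for the fast conduction identity of PCs, was called (ENSMUSG00000004151, chr12:38779380-38870484). It had 206, 554 and 608 in PCs and 45, 26.7 and 43.3 in VMs, so transcripts were well detected in VMs too, and its log2 fold change was 3.56 ± 0.46 (SE) (adjusted p = 0.03 in edgeR's quasi-likelihood test). *Hopx*, a homeodomain cofactor, stood at 2409, 3872 and 2222 in PCs and 1204, 1247 and 1262 in VMs and passed only without WT PC replicate 2 (log2 fold change 0.90, adjusted p = 0.00995). *Irx2* stood at 77.3, 299.6 and 149 in PCs and 6.25, 20.3 and 52.3 in VMs and did not pass (adjusted p = 0.547). The T-box factors named for the conduction system, *Tbx3* at 47.9, 5.04 and 99.2 in PCs and 8.75, 35.6 and 25.2 in VMs and *Tbx5* at 137, 368 and 289 in PCs and 91.3, 161 and 170.0 in VMs, were chosen after their values were seen. With all 6 libraries both overlapped between the groups (adjusted p = 0.839 and 0.802). For *Tbx3* only WT PC replicate 2 lay below the VM libraries, and the other PC libraries lay above them. For *Tbx5* it was WT PC replicate 1, at 137, that fell among the VM libraries. Of 27 conduction system transcription factors tested, 1 passed, beside 0.108% of all genes. At an unadjusted p under 0.05, 4 were higher and 2 lower, beside 5.09% and 1.22% of all genes, and the median was 0.20.

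Matrix genes gave the last calls. *Vcan*, the large chondroitin sulphate proteoglycan versican (ENSMUSG00000021614, chr13:89655312-89742509), had 430.0, 1516 and 1219.5 in PCs and 82.5, 35.6 and 20.1 in VMs, a log2 fold change of 4.52 ± 0.62 (SE) and an adjusted p of 0.0424. *Spock2*, the heparan sulphate proteoglycan testican 2 (ENSMUSG00000058297, chr10:60106219-60135198), had 68.1, 179 and 105 in PCs and 6.25, 2.54 and 2.01 in VMs, a log2 fold change of 4.98 ± 0.64 (SE) and an adjusted p of 0.03. The VM libraries held 2 to 5 counts of it, so the fitted value depends on the prior count. Of 33 proteoglycan and elastic fibre genes tested, 19 had all PC libraries above all VM libraries and 1 the reverse, beside 6.72% and 7.19% of all genes, and the median log2 fold change was 1.47. Without WT PC replicate 2, 9 passed, beside 0.873% of all genes. *Dcn*, decorin, stood at 859, 1430.1 and 655 in PCs and 300.1, 216 and 200.2 in VMs (adjusted p = 0.115, and 0.00174 without that library), and *Sparc*, a collagen-binding matrix protein, at 473, 1143 and 456 in PCs and 184, 113 and 113 in VMs (adjusted p = 0.149, then 0.00198). All 17 collagen genes tested had a log2 fold change above 0 with all 6 libraries, as 49.7% of all genes did, 8 of them with an unadjusted p under 0.05, beside 5.09%, and 0 past the adjustment. The fibroblast markers had 17 of 17 above 0 and a ratio of summed levels of 4.08. Their list itself holds *Dcn*, *Col1a1* and other collagen genes, so it is no separate measure. The part of fibroblast RNA in the matrix result was not tested.

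The RefSeq promoter windows of the called genes, 300 bases around each start in GRCm38.p6, were searched on both strands for 4 motifs, since the genes rose together. The ETS motif CCGGAAG was in 0 of 14 windows and in 8.86% of 32851 windows of all genes, and the GATA motif AGATAA in 0 of 14 and 11.2%. The T-box motif GGTGTGA was in 1 window, that of *Stard10*, and in 3.98% of all windows, and the NKX motif CACTTNA in 1, at a second start of *Etv1*, and in 11.5%. A match is a description of letters and not a binding site. The windows with a match and that of *Scn10a*, which has none, are shown with the matched letters in capitals.
Stard10, chr7:101316836-101317135, + strand: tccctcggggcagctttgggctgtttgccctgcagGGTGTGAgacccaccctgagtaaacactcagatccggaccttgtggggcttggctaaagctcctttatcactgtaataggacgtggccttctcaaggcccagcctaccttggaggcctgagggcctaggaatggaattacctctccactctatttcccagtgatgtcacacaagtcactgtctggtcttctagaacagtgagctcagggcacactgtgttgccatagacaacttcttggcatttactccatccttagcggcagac
Etv1 second start, chr12:38783461-38783760, + strand: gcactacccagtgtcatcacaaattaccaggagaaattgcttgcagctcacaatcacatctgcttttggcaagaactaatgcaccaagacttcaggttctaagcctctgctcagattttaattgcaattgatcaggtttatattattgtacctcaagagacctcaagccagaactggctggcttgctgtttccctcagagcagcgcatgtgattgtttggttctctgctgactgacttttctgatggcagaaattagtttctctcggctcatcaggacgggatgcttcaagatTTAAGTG
Scn10a, chr9:119718983-119719282, - strand: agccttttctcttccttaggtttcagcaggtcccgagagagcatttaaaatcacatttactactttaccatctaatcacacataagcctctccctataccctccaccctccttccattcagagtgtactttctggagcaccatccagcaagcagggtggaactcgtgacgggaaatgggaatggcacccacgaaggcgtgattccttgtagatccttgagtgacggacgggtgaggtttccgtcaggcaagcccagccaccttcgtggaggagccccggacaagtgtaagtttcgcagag

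Without WT PC replicate 2 the 107 genes called higher held, beside the 13, *Lmntd1*, a lamin tail domain gene, at 72.2, 17.6 and 169 in PCs and 3.75, 3.81 and 9.06 in VMs, where WT PC replicate 2 was the lowest PC library (adjusted p = 5.77e-04 without it). Of the 107, 51 were on at least 1 of the 40 lists and 11 on a list of non-myocyte markers. The lists were compiled with earlier results of these data known. The share of all genes tested that they hold was not counted, so neither number can be called high or low. *Igfbp5*, an insulin-like growth factor binding protein known from the conduction system, stood at 508, 468 and 766 in PCs and 269, 209.7 and 202 in VMs (adjusted p = 0.216, then 0.00444). *Cox6a2*, the striated muscle form of a cytochrome oxidase subunit, was at 6091, 6317 and 4682 in PCs and 2771, 3416 and 2127 in VMs (log2 fold change 1.04 ± 0.24 (SE), adjusted p = 0.317, then 0.0372) and was the 1 gene with an unadjusted p under 0.05 among the 15 genes most abundant in both cell types, listed further on.

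**Figure D2:**
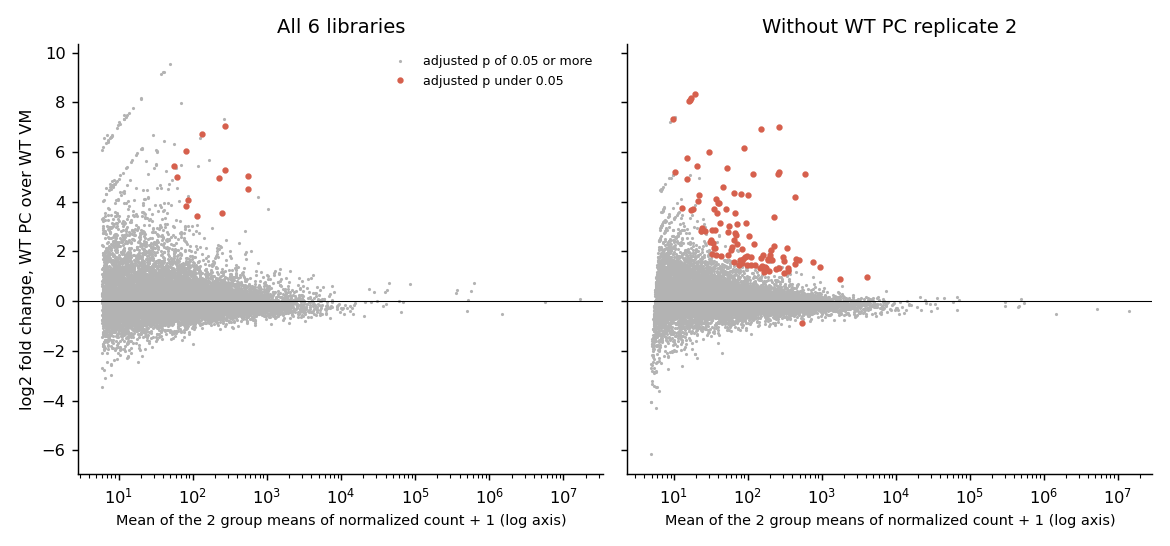
Log2 fold change of WT PC over WT VM against the mean level on a log axis, 1 point per gene tested, with all 6 libraries (left) and without WT PC replicate 2 (right), and genes past an adjusted p of 0.05 in red. The 13 red genes on the left lie above 0, as do 107 on the right, where 1 lies below.

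The list of conduction system genes had the highest median of the myocyte lists, though it was compiled with earlier results of these data known. Of 31 members tested, 7 passed as higher with all 6 libraries and 15 without WT PC replicate 2, beside 0.108% and 0.873% of all genes. The 7 are among the 13 genes called, and the list medians were 2.38 and 2.70. The interferon response list had 6 of 19 higher at an unadjusted p under 0.05, beside 5.09% of all genes, among them *H2-D1* at 80.2, 219 and 84.5 in PCs and 55, 36.9 and 20.1 in VMs, which shares reads with its close copies, and 0 past the adjustment. Its sum was 1131, 2095 and 1067 in PCs and 550.4 to 813 in VMs, highest in WT PC replicate 2. The macrophage and leukocyte markers moved with it (12 of 15 at that p, ratio of summed levels 4.85), and their part in it was not tested. Of 26 immediate early genes, which are induced within minutes of stress or dissociation, 3 were higher at such a p, and 0 of 22 heat shock genes were. Without WT PC replicate 2 these numbers were 4 and 1, beside 7.05% of all genes. The immediate early genes with a log2 fold change above 0 then rose from 13 to 23, beside 6181 of 12262 genes. Their median went from -0.0056 to 0.41. Fos-family member *Fosb* stood at 27.1, 32.7 and 59.7 in PCs and 6.25, 6.35 and 18.1 in VMs and *Egr1* at 664, 561 and 747 in PCs and 349, 159 and 485 in VMs, neither past the adjustment. Of 30 neuronal and synaptic genes, 6 were tested, 4 had an unadjusted p under 0.05 as higher, beside 5.09% of all genes, and 0 passed. None of 19 clock genes had an unadjusted p under 0.05.

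**Figure D3:**
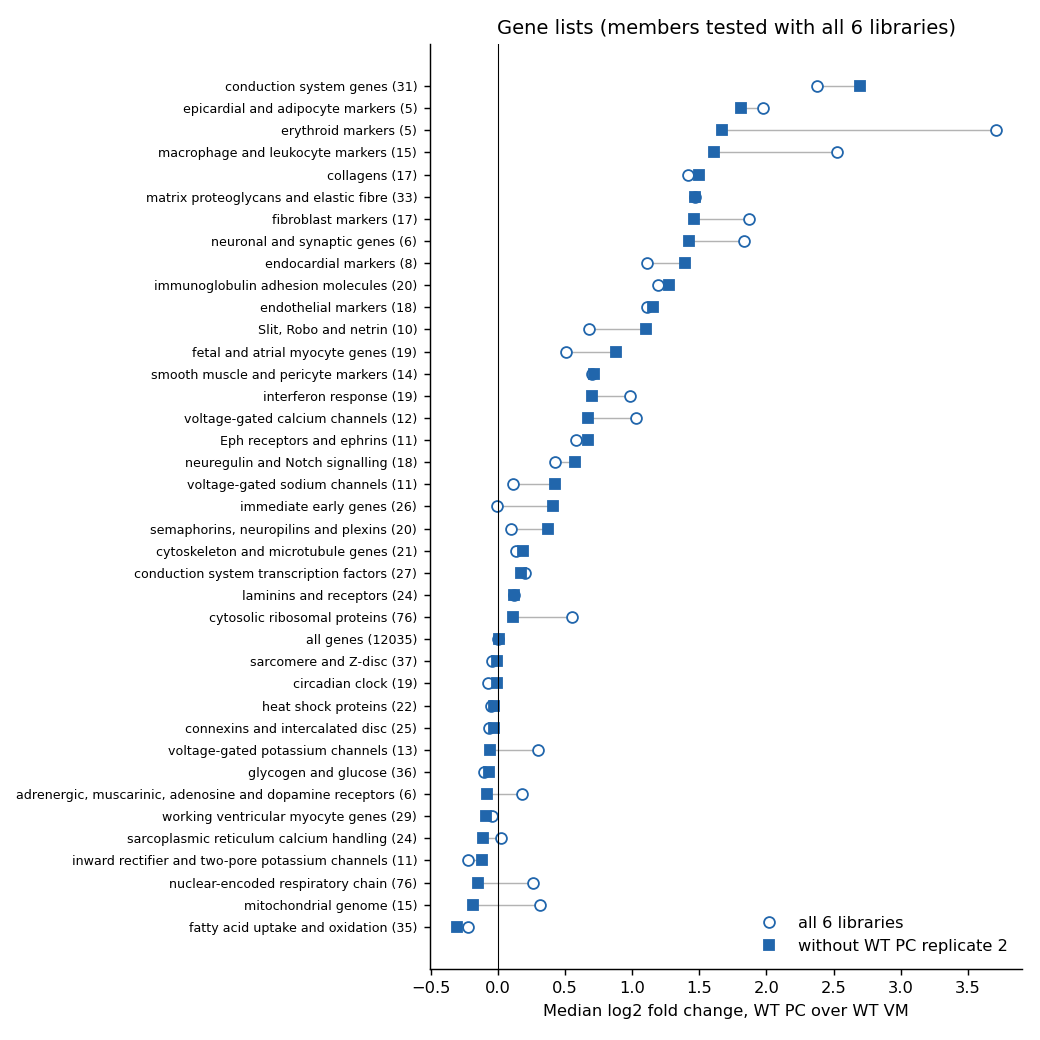
Median log2 fold change of WT PC over WT VM for each list with at least 5 members tested (number in brackets) and for all genes, with all 6 libraries (open circles) and without WT PC replicate 2 (squares). Conduction system genes lie at 2.38 and 2.70, sarcomere genes near 0, and ribosomal and respiratory chain genes move with the library left out.

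The genes highest in both cell types were those of the working cardiomyocyte. Per kilobase of exon, the 15 protein-coding nuclear genes with the highest mean level were *Mb*, *Actc1*, *Pln*, *Myl3*, *Myl2*, *Tnni3*, *Cox8b*, *Atp2a2*, *Myh6*, *Slc25a4*, *Cox7a1*, *Cox7b*, *Ckmt2*, *Cox6a2* and *Tpm1*, and 14 of them remained so without WT PC replicate 2. *Mb*, myoglobin, was at 32078 normalized counts per kilobase in PCs and 23802 in VMs, and *Pln*, the inhibitor of the calcium pump, at 22177 and 21804. The ventricular light chain gene *Myl2* was at 16371 and 12525, the adult myosin heavy chain gene *Myh6* at 10284 and 10438, and the calcium pump gene *Atp2a2* at 9098 and 12320.4. On the same scale *Scn10a* was at 20.1 in PCs, *Slit2* at 42.7 and *Sbk3*, the highest of the 13, at 138. All 13 were thus below the least abundant of the 15 in PCs, *Ckmt2*, which was at 5509.

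Of 37 sarcomere and Z-disc genes tested, 0 passed the adjustment, 1 had an unadjusted p under 0.05 as higher (*Neb*) and 1 as lower (*Fhl2*, at 5137, 4925 and 3599 in PCs and 6457, 6902 and 6327 in VMs), and the median was -0.05. For 29 working ventricular myocyte genes the median was -0.05, and 2 had an unadjusted p under 0.05 as lower, beside 1.22% of all genes. Those were *Cacna1c* and *Hey2*, a Notch target of compact myocardium, at 19, 0 and 14 in PCs and 43.8, 33 and 55.3 in VMs (adjusted p = 0.779). Connexin 43 (*Gja1*), the gap junction protein of working myocardium, stood at 1874, 1309 and 1417 in PCs and 1957, 1952 and 2429.9 in VMs, with the PC libraries below the VM libraries but an adjusted p of 0.802. Per kilobase *Gja1* remained above *Gja5* in PCs, at 149.5 against 14.

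The lower side of the comparison was small in size. The 12 genes lower in PCs with the smallest p-values were *Slc35f5*, *Kctd9*, *Gm26397*, *Rnf139*, *Trappc6b*, *Ppm1k*, *P2ry1*, *Decr1*, *Mfap1a*, *Cbr4*, *Ndufaf1* and *Mef2c*, with log2 fold changes of -2.22 (*Gm26397*, a small nucleolar RNA gene) to -0.64 (*Ppm1k*) and adjusted p-values of 0.504 to 0.609. *Kctd9*, a potassium channel tetramerization domain protein, stood at 410.4, 426 and 350.4 in PCs and 691, 620.2 and 776 in VMs and was the 1 gene that fell past the adjustment without WT PC replicate 2 (log2 fold change -0.87, adjusted p = 0.0447). *Mef2c*, a cardiac transcription factor, stood at 371, 272 and 471 in PCs and 609, 587 and 876 in VMs, and *Ppm1k*, a mitochondrial phosphatase of branched-chain amino acid breakdown, at 866, 869 and 842 in PCs and 1185, 1371 and 1462 in VMs. The 3 PC libraries were below the 3 VM libraries for each of these, as for 7.19% of all genes.

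Fatty acid oxidation genes leaned lower in PCs. Of 35 genes tested, 9 had every PC library below every VM library, beside 7.19% of all genes. At an unadjusted p under 0.05, 5 were lower, beside 1.22% of all genes, and 0 passed the adjustment. Its median was -0.22, and -0.31 without WT PC replicate 2, where 9 had such a p beside 3.33% of all genes. *Decr1*, an auxiliary enzyme for unsaturated fatty acids, stood at 1529.6, 1798 and 1447 in PCs and 2094, 2856 and 2688 in VMs. *Hadhb*, the beta subunit of the trifunctional protein, chosen after its values were seen, was at 4364, 3376 and 3432 in PCs and 5108, 5678 and 5774 in VMs, and *Etfa*, which passes electrons from acyl-CoA dehydrogenases, at 4271, 3689 and 4473 in PCs and 5439, 6166 and 6797 in VMs. The 1 member with such a p as higher was *Fabp4*, a fatty acid binding protein known from capillary endothelium, at 453, 1362 and 564 in PCs and 303, 165 and 255 in VMs, which is also on the endothelial list.

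Respiratory chain and ribosomal protein genes moved with a single library. The median over 76 nuclear respiratory chain genes was 0.26 with all 6 libraries and -0.15 without WT PC replicate 2, so its sign turned. Their summed count was 358167 in that library and 190217 to 232166 in the other 5. For 76 ribosomal protein genes the median was 0.55, and 0.11 without the library, with summed counts of 84734 in it and 35216 to 44361 in the others. *Cox7a1*, at 2289, 9203 and 2279 in PCs and 2293, 3036 and 2162 in VMs, and *Rps24*, at 1071, 4638 and 1475 in PCs and 1031, 1268 and 1401 in VMs, show the pattern gene by gene, with WT PC replicate 2 the highest library for both. Of 15 genes of the mitochondrial genome, 11 had a log2 fold change above 0 with all 6 libraries and 3 without WT PC replicate 2, and the median turned from 0.31 to -0.19. Of these, *mt-Co1* stood at 1302960, 1166030 and 1131340 in PCs and 1517830, 1927780 and 1732890 in VMs, below in every PC library, with an adjusted p of 0.741.

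Markers of non-myocytes were higher in PC libraries. Summed endothelial markers ran from 2524 to 3139.7 in PCs and from 911 to 1722 in VMs, a ratio of means of 2.28, and 2.15 without WT PC replicate 2. Fibroblast markers ran from 1803 to 3988 against 540.3 to 918 (ratio 4.08, then 3.14), and macrophage and leukocyte markers from 685 to 2087 against 152 to 346 (ratio 4.85, then 2.89). The groups did not overlap for any of these 3 sums. The same holds for the summed matrix proteoglycan genes, several of which are also made by fibroblasts. Smooth muscle and pericyte markers did not separate, at 9024 to 11969.8 and 10036 to 10862, but that list holds *Des* and *Abcc9*, which cardiomyocytes express strongly. By gene, 13 of its 14 members tested had a log2 fold change above 0 (49.7% of all genes), and the median was 0.70. At an unadjusted p under 0.05, 5 were higher (5.09% of all genes). Working ventricular myocyte genes summed to 315948 to 396749 in PCs and 336754 to 372131 in VMs.

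By gene, 7 of 18 endothelial, 9 of 17 fibroblast and 12 of 15 macrophage markers had an unadjusted p under 0.05 as higher, beside 5.09% of all genes, and none passed the adjustment with all 6 libraries. *Cdh5*, the endothelial cadherin, stood at 263, 184 and 201 in PCs and 129, 66.1 and 89.5 in VMs and passed without WT PC replicate 2 (adjusted p = 0.0447). *Mgp*, a matrix protein that blocks calcification, was at 418, 393 and 322 in PCs and 121, 57.2 and 62.4 in VMs (adjusted p = 0.0828, then 0.00198), and *C1qc*, a complement subunit of macrophages, at 50.8, 138 and 27.9 in PCs and 6.25, 7.63 and 3.02 in VMs (adjusted p = 0.0336 without the library). Summed endocardial markers overlapped between the groups, at 350.0 to 685 in PCs and 277 to 375 in VMs, where the lowest PC value was that of WT PC replicate 2. The ratio of means was 1.76 with all 6 libraries and 2.1 without that library, where 7 of 8 members had an unadjusted p under 0.05 as higher, beside 7.05% of all genes. *Npr3*, *Vwf* and *Cytl1* of that list had no count in WT PC replicate 2, and *Npr3* stood at 160.5, 0 and 202 in PCs and 90.0, 95.3 and 54.3 in VMs.

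Red blood cell transcripts overlapped between the groups and varied widely within each. *Hbb-bs*, a beta globin with a near-identical copy, stood at 621, 3709 and 0.775 in PCs and 156, 78.8 and 4.02 in VMs, so that both WT PC replicate 3 and WT VM replicate 3 were near 0. The ratio of summed erythroid markers was 15.8 with all 6 libraries and 3.66 without WT PC replicate 2, and that of epicardial and adipocyte markers 3.19 and 1.86. Of 16 Schwann cell and neuron markers, 8 had no count in any of the 6 libraries, and 1 passed the filter on low counts, *Dbh* at 9.81, 5.04 and 53.5 in PCs and 12.5, 3.81 and 9.06 in VMs. The part that RNA of non-myocytes has in the levels of the 13 genes was not tested.

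**Figure D4:**
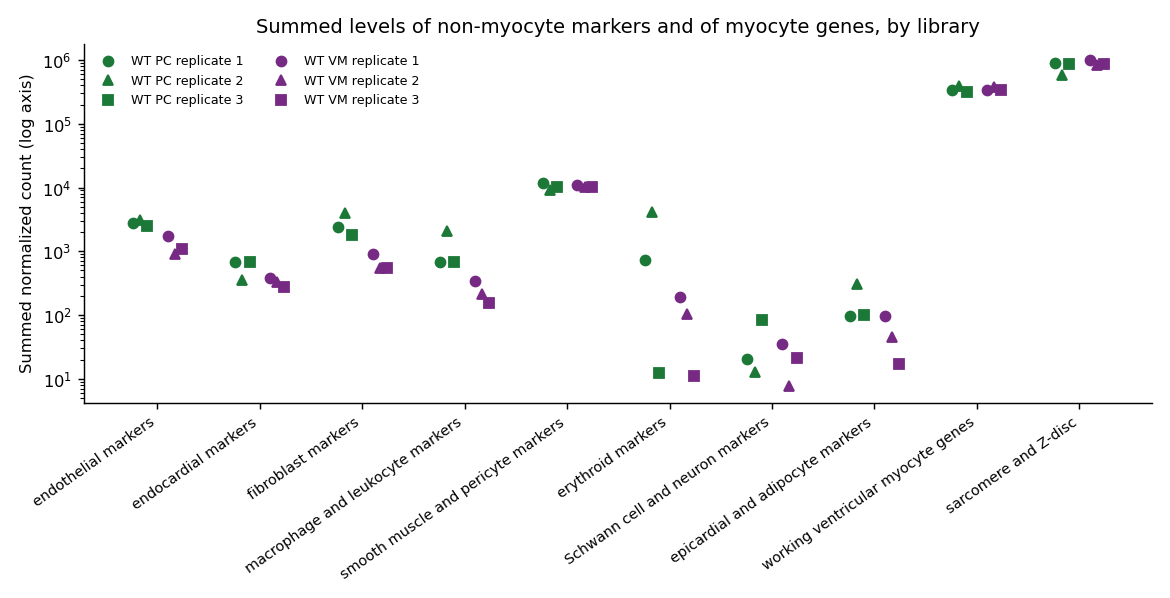
Summed normalized counts, on a log axis, of 8 lists of non-myocyte markers and of 2 lists of myocyte genes, with 1 point per library (green WT PC, purple WT VM, symbol by replicate). Endothelial, fibroblast and macrophage sums are higher in the 3 PC libraries, the myocyte sums overlap, and erythroid markers vary within each group.

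The same contrast in the KO mice used 6 other libraries. Of 10887 genes tested, 93 passed as higher in KO PCs (0.854%). All 13 genes had a positive log2 fold change there, as 51.3% of the genes tested did, 11 of them with every KO PC library above every KO VM library, beside 8.73% of the genes tested, and 8 passed, namely *Cntn2*, *Scn10a*, *Sema3a*, *Slit2*, *Drd2*, *Sbk3*, *Etv1* and *Vcan*. Because the 13 were chosen on their WT values, smaller values in KO are given as a description. *Sema3a* had a log2 fold change of 2.55 in KO (normalized counts of 59.5, 47.1 and 198 in KO PCs and 19.6, 18.9 and 15.1 in KO VMs), *Slit2* of 3.04, *Etv1* of 2.63 and *Vcan* of 3.61. KO PC replicate 3 was the highest library for *Cntn2*, at 33.6, 42.7 and 393 in the 3 KO PC libraries. Of the 107 genes called without WT PC replicate 2, 93 were tested in KO, all 93 had a positive log2 fold change, beside the 51.3% of all genes tested, and 40 passed. The difference between genotypes in the PC against VM contrast was tested over all 12 libraries, with 0 of 11533 genes past the adjustment in edgeR's quasi-likelihood test and 340 at an unadjusted p under 0.05. Among the 13, 3 had an unadjusted p under 0.05, beside 335 of 11438 genes tested in WT. This test reuses the WT libraries on which the 13 were chosen, which favours small p-values for them. The 3 are therefore no evidence of a difference between genotypes. *Ncam1* had 0, 1.1 and 0.580 in KO PCs and 0, 0 and 0 in KO VMs, as the genotype label says.

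**Figure D5:**
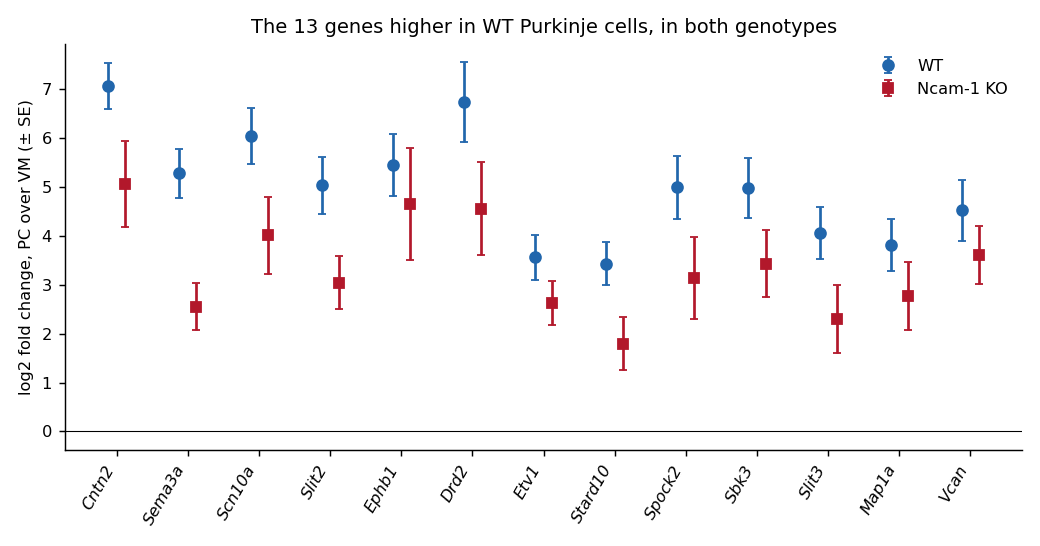
Log2 fold change of PC over VM, with its standard error, for the 13 genes called in WT (circles WT, squares *Ncam-1* KO, 3 libraries per group). All values in both genotypes are above 0, and the 13 genes were chosen on the WT values.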

How the data were processed

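RNA of the sorted cells was amplified with a low-input kit (Nugen Ovation Trio) and sequenced as paired 50 bp reads, and the authors aligned the pairs to mm10 with STAR (2.5.0c), guided by GTF release 74, and counted them per gene with HTSeq (0.6.0), per the labels and methods. The strand setting is not given in the sources used here, so overlapping and antisense genes, and near-identical copies, are uncertain. The deposited values are raw counts per gene, 1 file per library, and the rows that name no gene entered neither library sizes nor tests.

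WT PC and WT VM were compared with edgeR (4.0.16) in R (4.3.3): TMM normalization, genes with a mean normalized count above 5, a two-sided quasi-likelihood test and Benjamini-Hochberg adjustment over all genes tested, with a call at an adjusted p under 0.05. DESeq2 (1.42.0) and limma (3.58.1) voom were alternatives, as were other scalings and filters, thinning to the smallest library, the replicate block, a fit of all 12 libraries and leaving out each library. The code was tested on simulated data. Gene lists are described by counts and medians, without a set test. Levels of different genes were compared per kilobase of merged exon. A gene without VM counts was set against a floor of 3 counts per library, and one with 1 to 3 counts in VM libraries got a ratio of summed counts with its 95% interval.

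Genes were named if they were the markers, *Ncam1* or *Alcam*, were called, were among the 12 lower genes with the smallest p or the 12 first calls in either direction without WT PC replicate 2, were among the leading or most abundant members of a list, or were among the 15 highest in both cell types. The gene set and lists were chosen with earlier results of these data known, so they give no independent support. Some genes are not reported here.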

Additional observations from a re-analysis of the deposited data

How the results depend on the processing

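The number of genes called higher in PCs was 13 with the quasi-likelihood test of edgeR, 123 with DESeq2's Wald test, 127 with limma voom and quality weights, 294 without a filter on low counts and 38 in the fit of all 12 libraries. The number called lower was 0, and became 1, 4 and 3 with the Wald test, voom and no filter. DESeq2 size factors gave 11 higher, and 8 rather than 13 listed genes lower at an unadjusted p under 0.05. Without a filter, 212 rather than 134 listed genes were higher at that p. A filter that asks for expression in as many libraries as 1 group holds, of either cell type, gave 13. Leaving out mitochondrial genes also gave 13, and thinning gave 10. With the replicate block 4 genes were called, without *Ephb1*, *Drd2*, *Sbk3*, *Stard10*, *Spock2*, *Etv1*, *Slit3*, *Vcan* and *Map1a*. Same-numbered WT libraries correlated at 0.192, 0.0675 and 0.133 and other pairs at -0.165 to 0.0252. Every library thus correlated best with its own number, a hint from the data and not the design, but 1 pair was under 0.1, so the numbers were not taken to pair them. Leaving out 1 library gave 1 to 107 calls higher and 0 to 1 lower, and leaving out WT PC replicate 2 gave 36 listed genes lower. The cause of these shifts was not tested. The fold changes of 29 genes (*Gja5*, *Ncam1*, *Alcam*, *Lmntd1*, the 13 called and the 12 lower genes) kept their sign in all these alternatives. Most of these genes were chosen on the same libraries that the alternatives reuse, so this was close to fixed in advance. It gives no support, and the share of all genes that kept their sign was not counted. Without WT PC replicate 2 the ratios of summed erythroid, macrophage and epicardial markers fell by over 1.5 times. The 3 libraries per group and the smallest library, of 1532393 counts outside mitochondria, limit what could be called, and genes near 3 counts per library cannot be ranked.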
